A study of Mus musculus with 24 samples.

Results

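The Hox genes are the genes of the 4 homeobox clusters that set position along the body axis, and their signal was followed on 12 two-colour microarrays of mouse embryonic fibroblasts (MEFs) with and without E4F1, a zinc finger transcription factor. Members were all protein-coding genes whose symbol is Hoxa, Hoxb, Hoxc or Hoxd followed by a number, 39 in the mouse annotation, and 22 of them are described through their named reporters (probes), 72 in all. They comprised 8 of 11 Hoxa genes (chromosome 6), 6 of 10 Hoxb genes (chromosome 11), 4 of 9 Hoxc genes (chromosome 15) and 4 of 9 Hoxd genes (chromosome 2). Reporters were named through the authors' deposited lists or a RefSeq accession, and the other 17 Hox genes were not analysed here. All 22 members entered through the authors' deposited SAM list (significance analysis of microarrays, 5% false discovery rate) for E4F1 loss in Ha-RasV12 cells. Counts of members changed in that comparison therefore say nothing about how common a change was among Hox genes.

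The MEFs came from 13.5-day embryos of a mixed C57BL/6 and 129Sv/J background, and all cells lacked p53. Control cells were E4F1 +/- after CRE had acted on an E4F1+/flox genotype, so that 1 working copy was left. Knockout cells were E4F1 -/- after CRE had acted on E4F1-/flox, so control and knockout cells came from different parental genotypes. RNA was taken 3 days after infection with a retrovirus that delivers CRE and then excises itself. Both genotypes were profiled on 2 backgrounds: p53-/- MEFs, and p53-/- MEFs that a second retrovirus had transformed with Ha-RasV12, an activated Ras oncogene. Each of the 4 groups had 3 biological replicates (A, B and C), each measured in both dyes, and control and knockout of 1 replicate shared their 2 arrays.

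Hox proteins are homeodomain transcription factors. Within a cluster, genes with low paralog numbers are switched on in anterior parts of the embryo and those with high numbers in posterior and distal parts. Fibroblasts keep much of the Hox pattern of the site they came from, and Polycomb and Trithorax complexes are known to hold it through cell divisions. Members of the Hoxa and Hoxd clusters with high numbers pattern the limbs, and Hoxb and Hoxc genes of middle number pattern the trunk.

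The stretch before the start of the gene is shown for 3 members that differ in how their signal moved: Hoxd10 had the greatest mean fall of the 22, Hoxa11 fell alike in all replicates, and Hoxb8 is in the cluster that moved the other way. Each is the 250 bases that end at the base before the RefSeq start, 5′ to 3′ on the gene's strand, from RefSeq on build GRCm38.p6. They lie at chr2:74691641-74691890 (plus strand), chr6:52245811-52246060 (minus strand) and chr11:96281655-96281904 (plus strand). Capitals mark matches, on either strand, to TGACGT, the core of the element that E4F1 is known to bind in an adenovirus promoter, and to TGATNNAT, a joint site of Hox and Pbx proteins.
Hoxd10: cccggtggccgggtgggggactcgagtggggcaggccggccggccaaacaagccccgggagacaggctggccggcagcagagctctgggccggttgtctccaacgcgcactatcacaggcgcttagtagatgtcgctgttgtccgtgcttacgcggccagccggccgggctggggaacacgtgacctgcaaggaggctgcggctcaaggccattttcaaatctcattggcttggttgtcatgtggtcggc
Hoxa11: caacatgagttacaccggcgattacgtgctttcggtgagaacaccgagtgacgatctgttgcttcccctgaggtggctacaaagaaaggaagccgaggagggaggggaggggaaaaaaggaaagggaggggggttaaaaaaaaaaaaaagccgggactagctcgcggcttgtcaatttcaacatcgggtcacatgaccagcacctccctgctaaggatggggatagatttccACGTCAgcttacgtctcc
Hoxb8: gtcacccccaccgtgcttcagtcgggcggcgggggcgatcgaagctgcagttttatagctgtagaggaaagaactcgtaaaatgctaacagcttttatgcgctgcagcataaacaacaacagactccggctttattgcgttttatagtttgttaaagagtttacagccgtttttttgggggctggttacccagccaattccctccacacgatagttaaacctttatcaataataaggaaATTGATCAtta
TGACGT matched the Hoxa11 stretch as its reverse complement, beginning 18 bases before the start. It was found in 1 of the 14 windows of 300 bases available for 13 measured Hox genes, against 7.51% of 32851 mouse windows. TGATNNAT matched the Hoxb8 stretch, also reversed, beginning 11 bases before the start, and was found in 2 of the 14 Hox windows, those of Hoxb8 and Hoxa2, against 8.85% of all windows. Neither motif was found in the Hoxd10 window. A match is only a match of letters.

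Signals are given as log2 of the authors' normalized intensity. The value of a gene in a sample is the median over its reporters, with both dyes averaged. A gene was called where at least 1 reporter passed an adjusted p of 0.05 in limma, with Benjamini-Hochberg adjustment over all 132488 reporters, and none passed in the other direction. The adjusted p given for a gene is the smallest over its reporters, so it is not a test of the median difference printed beside it. The 95th percentile of 5000 control reporters lay between 6.24 and 7.13 across the 24 dye channels, and a signal in or under that range is not told apart from background. The number of arrays limits the precision. E4f1 itself had a median signal of 6.77, 6.63 and 6.83 in the p53-/- controls and 6.19, 6.11 and 6.19 in the knockouts of replicates A, B and C. It was 6.68, 7.06 and 7.16 in the Ha-RasV12 controls and 6.00, 5.73 and 5.77 in the knockouts. All these medians except that of Ha-RasV12 control C lay in or under the background range. A reporter was above the percentile in 6 of 6 control channels of both backgrounds. In the knockouts this held in 2 of 6 channels of p53-/- and 4 of 6 of Ha-RasV12 cells. E4f1 was called lower in both backgrounds (adjusted p = 0.0269 and 0.000125), with reporter differences of -1.38 to -0.16 and -2.24 to -0.10. The p53-/- call rests on 1 of 6 reporters. It was lost with any replicate left out (adjusted p = 0.116, 0.54 and 1 without A, B and C), with means over reporters (0.307) and with the knockout in Cy3 only (0.176), while 5 of 6 reporters passed in Ha-RasV12 cells and no alternative lost that call. The sources used here do not give where these reporters lie against the deleted part.

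In p53-/- MEFs, Hox signal was nearly the same in knockout and control cells. None of the 22 genes was called by limma, and 0.00679% of all 44170 transcripts on the array were called higher and 0.0272% lower. An unadjusted p under 0.05 was reached by 7 of the 72 Hox reporters, 6 of them among the 18 of the Hoxb cluster. Of all 132488 reporters 3947 reached it. The mean differences ran from -0.36 to 0.28, with a median of -0.02 against 0.0008 over all reporters. The difference of a replicate passed 1 log2 unit in 1 case, Hoxa5 in replicate A at -1.15, while replicates B and C gave 0.49 and 0.36. Hoxa5, known for its part in lung and neck development, therefore had no common direction.

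Hoxb6 to Hoxb9 were a little lower in every p53-/- knockout replicate. The differences were -0.31, -0.26 and -0.45 for Hoxb6, -0.42, -0.47 and -0.18 for Hoxb7, -0.37, -0.39 and -0.27 for Hoxb8 and -0.04, -0.42 and -0.31 for Hoxb9 in replicates A, B and C. These did not pass the adjusted test here. The authors' deposited limma table of this comparison lists 3 Hox genes, Hoxb7, Hoxb8 and Hoxb9, by 1 reporter each and all lower. The log2 changes in the authors' deposited table are -0.66, -0.80 and -0.78.

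For several Hox genes the p53-/- replicates differed more from one another than knockout from control did within a replicate. Hoxd10, a gene of the limb and the lumbar spinal cord, read 8.62, 7.15 and 7.49 in controls A, B and C and 8.56, 7.20 and 7.42 in the knockouts. Replicate A was above B and C in both genotypes. Replicate A was also the highest for Hoxa11, at 8.46, 7.11 and 7.56 in controls and 8.51, 7.00 and 7.04 in knockouts, and for Hoxd12, at 8.23, 6.78 and 7.13 in controls and 8.56, 7.18 and 7.07 in knockouts. Hoxc9, a gene of the thoracic trunk, ran the other way, at 8.33, 10.07 and 9.92 in controls and 8.64, 9.74 and 9.81 in knockouts, with A lowest in both. Control and knockout of 1 replicate shared arrays, so a property of the cells and one of the arrays cannot be told apart.

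**Figure D1:**
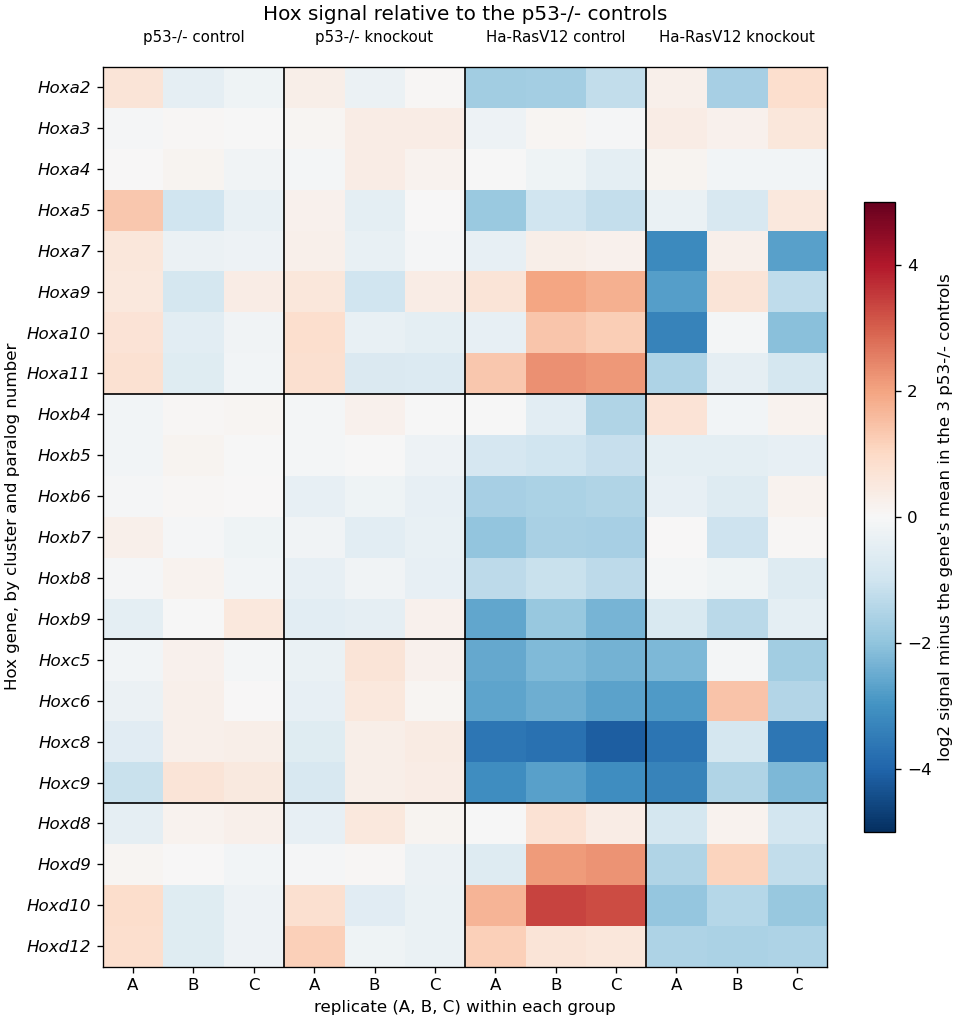
Rows are the 22 Hox genes by cluster and paralog number, columns are the 12 samples (3 replicates in each of 4 groups), and colour is the log2 signal minus the gene's mean in the 3 p53-/- controls. The p53-/- knockouts look like their controls, the Ha-RasV12 controls are low in Hoxb and Hoxc and high in Hoxa11 and Hoxd10, and knockout replicate B of Ha-RasV12 stands apart from A and C in Hoxa7 to Hoxa10 and Hoxc.

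In Ha-RasV12 MEFs, loss of E4F1 was accompanied by lower signal of Hoxa and Hoxd genes and higher signal of Hoxb genes among those called. Of the 22 genes, 6 were called lower (Hoxa9, Hoxa10, Hoxa11, Hoxd8, Hoxd10 and Hoxd12) and 4 higher (Hoxb6, Hoxb7, Hoxb8 and Hoxb9). Over all transcripts 1.43% were called lower and 2.36% higher, but the members had been listed from this same contrast, so the shares are not comparable. With these 2 groups fitted alone 5 genes were called, and without replicate C 4, namely Hoxa11, Hoxd10, Hoxd12 and Hoxb6. Over all reporters the calls fell from 3061 to 280 and 282 in these fits. Without the replicate block, Hoxa9, Hoxa10 and Hoxd8 were not called (adjusted p = 0.0973, 0.147 and 0.285).

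The greatest mean fall was that of Hoxd10, while Hoxd8 and Hoxd9 had smaller measured falls than Hoxa9, Hoxa10 and Hoxa11. The measured fall of Hoxd12 was limited by background, so it is not ranked against those of the Hoxa genes. Hoxd10 read 9.44, 11.13 and 11.03 in the Ha-RasV12 controls and 5.80, 6.32 and 5.87 in the knockouts of replicates A, B and C. Every knockout median lay near or under the background percentile, though a reporter was above it in 5 of 6 knockout channels. Hoxd10 fell by 4.54 on the log2 scale, -4.54 ± 0.80 (SD, n = 3), with 6 of 6 reporters passing (smallest adjusted p = 2.16e-05). Set against the background percentile or the reporters' own signal, whichever was higher, this is at least 15.8-fold lower. Hoxd12, a gene of the hand and foot plate, read 8.56, 8.04 and 7.95 in controls and 5.84, 5.80 and 5.82 in knockouts. It fell in all 3 replicates to background, with a reporter above the percentile in 1 of 6 knockout channels. The measured difference was -2.36 ± 0.31 (SD, n = 3, adjusted p = 0.000297), and by the same bound Hoxd12 was at least 3.23-fold lower.

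Hoxd8 and Hoxd9 sit beside Hoxd10 in the cluster and gave smaller differences. Hoxd8 read 7.44, 8.18 and 7.82 in controls and 6.58, 7.65 and 6.56 in knockouts, a difference of -0.88 ± 0.37 (SD, n = 3) that passed in 3 of 6 reporters (adjusted p = 0.023). Hoxd9 read 6.99, 9.79 and 9.90 in controls and 6.14, 8.77 and 6.42 in knockouts. Control A was far below B and C, and knockout B above A and C. Its difference of -1.78 ± 1.47 (SD, n = 3) just missed the threshold (adjusted p = 0.0507).

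Among the Hoxa genes of high number, Hoxa11, which patterns the forearm and the uterus, read 9.04, 10.01 and 9.87 in controls and 6.16, 7.24 and 6.83 in knockouts. The replicate differences of -2.88, -2.77 and -3.04 were close to each other, and the fall of -2.90 ± 0.14 (SD, n = 3) passed in 3 of 3 reporters (adjusted p = 2.84e-05). The antisense transcript Hoxa11os overlaps this gene and fell by a like amount, -2.87 ± 0.53 (SD, n = 3, adjusted p = 0.000315). The sources used here do not give whether the reporters tell the strands apart.

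Hoxa10 and Hoxa9 fell less evenly. Hoxa10, known for its part in the uterus and hind limb, read 9.69, 11.46 and 11.33 in controls and 6.76, 10.00 and 8.01 in knockouts. Hoxa9, best known in blood progenitors and leukaemia, read 9.85, 11.16 and 10.97 in controls and 6.45, 9.85 and 7.93 in knockouts. In both genes knockout B stayed near the control level of replicate A, while A and C were lower. The differences were -2.57 ± 0.98 (SD, n = 3) for Hoxa10 (adjusted p = 0.00225) and -2.58 ± 1.12 (SD, n = 3) for Hoxa9 (adjusted p = 0.00558).

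Hoxa7 showed the split between replicates most plainly. It read 9.59, 10.27 and 10.21 in controls and 6.79, 10.23 and 7.25 in knockouts. Knockouts A and C were near background and knockout B was at the control level. The difference of -1.93 ± 1.64 (SD, n = 3) was not called (adjusted p = 0.0692), and was called in the fit without replicate B.

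The Hoxa genes of low number had mean differences above 0 in all 4 cases, from 0.21 to 1.39, with no call. Hoxa2, which specifies the second branchial arch, read 6.12, 6.17 and 6.62 in controls and 8.14, 6.23 and 8.72 in knockouts, with A and C high and B at the control level. Its difference of 1.39 ± 1.16 (SD, n = 3) was not called (adjusted p = 0.0532). Hoxa5 read 7.22, 8.07 and 7.91 in controls and 8.75, 8.28 and 9.61 in knockouts, a difference of 1.15 ± 0.82 (SD, n = 3, adjusted p = 0.111). Hoxa3 and Hoxa4, genes of the pharyngeal and neck region, lay at or under the background percentile in most channels, with differences of 0.45 ± 0.28 (SD, n = 3) and 0.21 ± 0.15 (SD, n = 3). Hoxa3, like Hoxa2, was called higher without replicate B.

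By gene median the Hoxb cluster was near background in the Ha-RasV12 controls, and 4 of its 6 measured genes were called higher. Hoxb4 had a reporter above the percentile in 6 of 6 control channels, at 7.71, 7.60 and 7.68 in replicates A, B and C. Hoxb6, expressed in lateral mesoderm, read 6.39, 6.46 and 6.53 in controls and 7.62, 7.41 and 8.22 in knockouts. It rose by 1.29 ± 0.37 (SD, n = 3), with 3 of 3 reporters passing and reporter differences from 1.22 to 3.07 (adjusted p = 7.32e-05). Hoxb7 read 6.09, 6.46 and 6.41 in controls and 8.09, 7.01 and 8.11 in knockouts and rose by 1.42 ± 0.76 (SD, n = 3, adjusted p = 0.00236). Hoxb9, which helps to specify the thoracic ribs, read 5.20, 5.90 and 5.46 in controls and 7.02, 6.45 and 7.31 in knockouts and rose by 1.41 ± 0.74 (SD, n = 3, adjusted p = 0.00396). Knockout B was the lowest of the knockouts in each of these 3 genes.

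Hoxb8, known in myeloid progenitors and the dorsal spinal cord, read 5.68, 5.90 and 5.67 in controls and 6.91, 6.78 and 6.33 in knockouts. Its median over reporters rose by 0.92 ± 0.29 (SD, n = 3). The reporters ranged from 0.55 to 2.53, and of the 3 only the one at 2.53 passed (adjusted p = 0.000835). Hoxb4 and Hoxb5, the 2 measured members of lower number, had differences of 0.94 ± 0.69 (SD, n = 3) and 0.53 ± 0.20 (SD, n = 3) and were not called (adjusted p = 0.0797 and 0.0678). Over the 6 Hoxb genes the median difference was 1.11, against -0.005 over all reporters.

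The Hoxc genes were highest in knockout replicate B. Hoxc6, a gene of the upper trunk, read 6.10, 6.29 and 6.05 in the controls and 5.89, 10.16 and 7.28 in the knockouts. Hoxc8, which acts in the lower neck and thorax, read 6.24, 6.15 and 5.76 in controls and 6.20, 9.00 and 6.25 in knockouts. The medians of A and C stayed at background, though a reporter was above the percentile in 4 of 6 knockout channels. Hoxc5 read 5.50, 5.85 and 5.70 in controls and 5.83, 7.96 and 6.34 in knockouts. Hoxc9 read 6.32, 6.73 and 6.34 in controls and 6.12, 7.95 and 7.20 in knockouts. Each gene was over 1 log2 unit higher in knockout B than in control B. In replicate A none passed that limit and in C only Hoxc6 did. None of the 4 was called with all replicates, with differences of 1.63 ± 2.06 (SD, n = 3) for Hoxc6, 1.02 ± 0.95 (SD, n = 3) for Hoxc5 and 0.62 ± 0.74 (SD, n = 3) for Hoxc9 (adjusted p over the 4 genes from 0.105 to 0.149). No control channel of Hoxc8 was above background, and its measured difference was 1.10 ± 1.54 (SD, n = 3). Its knockout mean was 1.54-fold above the background percentile, but knockout B carried that mean while the medians of A and C stayed at background. Without replicate A all 4 were called higher (adjusted p = 0.00568 for Hoxc5, 0.0217 for Hoxc6, 0.0246 for Hoxc8 and 0.00461 for Hoxc9).

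Taken by replicate, 6 of the 22 genes were over 1 log2 unit higher and 6 over 1 unit lower in knockout A. In knockout B the numbers were 4 and 6, and in C they were 7 and 8. All 4 rises past that limit in B were Hoxc genes, and the limit was passed upwards in A and C mainly by Hoxa and Hoxb genes. Across 37587 reporters of mean log2 signal above 8, the knockout-minus-control differences of A and B had a correlation of 0.04, those of A and C 0.33 and those of B and C 0.45, given as a description over reporters. Leaving out replicate B in both backgrounds gave 6 Hox genes called higher and 7 lower. Those added were Hoxa2, Hoxa3 and Hoxa7. Leaving out replicate A gave 8 called higher and 7 lower, and those added were Hoxc5, Hoxc6, Hoxc8, Hoxc9 and Hoxd9. Over all reporters 3061 were called with all replicates, 1360 without B and 3552 without A.

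**Figure D2:**
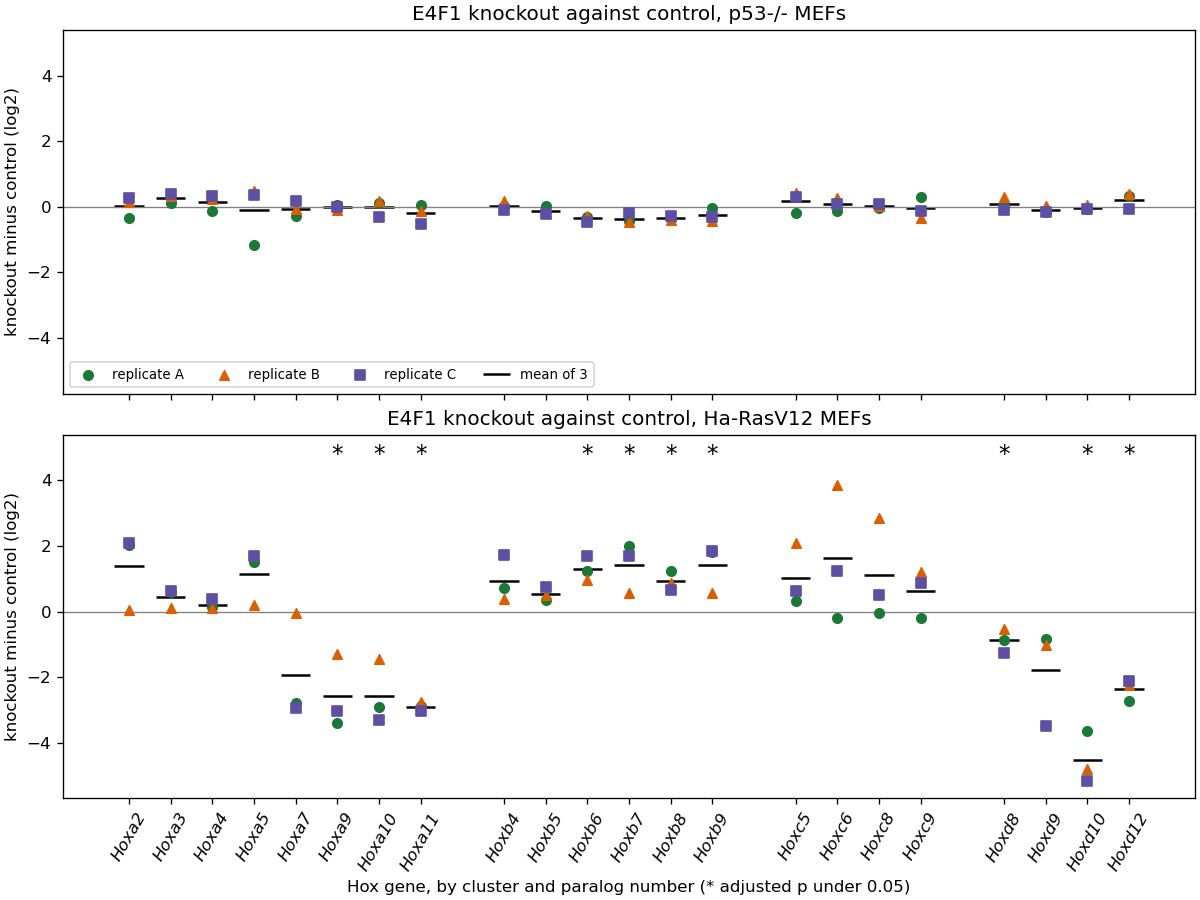
Points are the knockout-minus-control differences (log2) of replicates A, B and C for each Hox gene, lines are their means, the upper panel is p53-/- and the lower Ha-RasV12 MEFs, and stars mark genes with an adjusted p under 0.05. Hoxa9 to Hoxa11, Hoxd8, Hoxd10 and Hoxd12 lie below 0 and Hoxb6 to Hoxb9 above 0 in all 3 Ha-RasV12 replicates, and the p53-/- points lie near 0.

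The effect of E4F1 loss differed between the backgrounds for 8 of the 22 genes. The interaction was positive for 4 genes and negative for 4, against 0.507% and 0.211% of all transcripts, and it holds the contrast that listed the members. The Ha-RasV12 effect minus the p53-/- effect was -4.52 for Hoxd10 (adjusted p = 0.000531), -2.71 for Hoxa11 (adjusted p = 0.000833), -2.58 for Hoxd12 (adjusted p = 0.00451) and -2.57 for Hoxa10 (adjusted p = 0.033). Hoxb genes went the opposite way. The interaction was 1.63 for Hoxb6 (adjusted p = 0.00105), 1.77 for Hoxb7 (adjusted p = 0.0102), 1.26 for Hoxb8 (adjusted p = 0.00499) and 1.67 for Hoxb9 (adjusted p = 0.0102). For Hoxb8 and Hoxb9 the call rests on 1 of 3 reporters each, whose own interactions were 3.33 and 2.50. Without the replicate block 4 genes were called (Hoxd10, Hoxb6, Hoxb7 and Hoxb8), and without replicate C only Hoxd10. Over all reporters the interaction calls fell from 568 to 137 and 8 in these fits.

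The 2 kinds of control cells also differed in Hox signal. Of the 22 genes, 2 were called higher in Ha-RasV12 than in p53-/- controls, against 1.77% of all transcripts, and 9 were called lower, against 4.6%. These comparisons share the Ha-RasV12 controls with the contrast that listed the members, so nothing is read from the counts. Without replicate B 7 of the genes were called and without replicate C 4. Over all reporters the calls fell from 4926 to 830 and 757. The backgrounds were never on the same array and the table is not scaled between arrays, so background and array cannot be told apart. The median over all reporters was -0.13 in the same direction.

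All 4 Hoxc genes were lower in the Ha-RasV12 controls. Hoxc8 read 9.30, 10.13 and 10.17 in the p53-/- controls and 6.24, 6.15 and 5.76 in the Ha-RasV12 controls, where no channel was above background. It was at least 10.1-fold lower, the p53-/- mean being set against the background percentile or the reporters' own signal, whichever was higher (adjusted p = 0.00071). Hoxc9 read 8.33, 10.07 and 9.92 against 6.32, 6.73 and 6.34, a difference of -2.98 between means of 9.44 ± 0.97 and 6.46 ± 0.23 (SD, n = 3, adjusted p = 0.00259). The differences were -2.60 for Hoxc6 (adjusted p = 0.0489) and -2.39 for Hoxc5 (adjusted p = 0.00482). The call for Hoxc6 rests on 1 of 3 reporters and was lost with quantile normalization. None of the 4 Hoxc genes was called without replicate C, nor Hoxc9 without replicate B.

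Hoxb5 to Hoxb9 were lower too. Hoxb9 read 7.29, 7.75 and 8.32 in p53-/- controls and 5.20, 5.90 and 5.46 in Ha-RasV12 controls, a difference of -2.27 (adjusted p = 0.00102). Hoxb6 read 7.96, 8.09 and 8.07 against 6.39, 6.46 and 6.53, -1.58 (adjusted p = 3.45e-06), and the differences of Hoxb7 and Hoxb8 were -1.74 and -1.25. Hoxb5 read 6.68, 6.95 and 6.79 against 5.96, 5.80 and 5.67 (adjusted p = 0.00125). Hoxb6 to Hoxb9 were called with any 1 replicate left out, and Hoxb5 not without B or without C. In the Ha-RasV12 knockouts Hoxb6 stood at 7.62, 7.41 and 8.22 and Hoxb9 at 7.02, 6.45 and 7.31, which spans or approaches the p53-/- control signals.

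The 2 genes called higher in Ha-RasV12 controls were Hoxd10 and Hoxa11. Hoxd10 read 8.62, 7.15 and 7.49 in the p53-/- and 9.44, 11.13 and 11.03 in the Ha-RasV12 controls, a difference of 2.78 (adjusted p = 0.000893). For Hoxa11 the difference was 1.93 (adjusted p = 0.0134). Neither was called without replicate B or without replicate C. In the Ha-RasV12 knockouts both were under every p53-/- control except for Hoxa11 in replicate B, which read 7.24 beside 7.11 in the lowest p53-/- control. Hoxa9, Hoxa10 and Hoxd9 differed by 1.47, 0.74 and 1.24 and were not called.

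**Figure D3:**
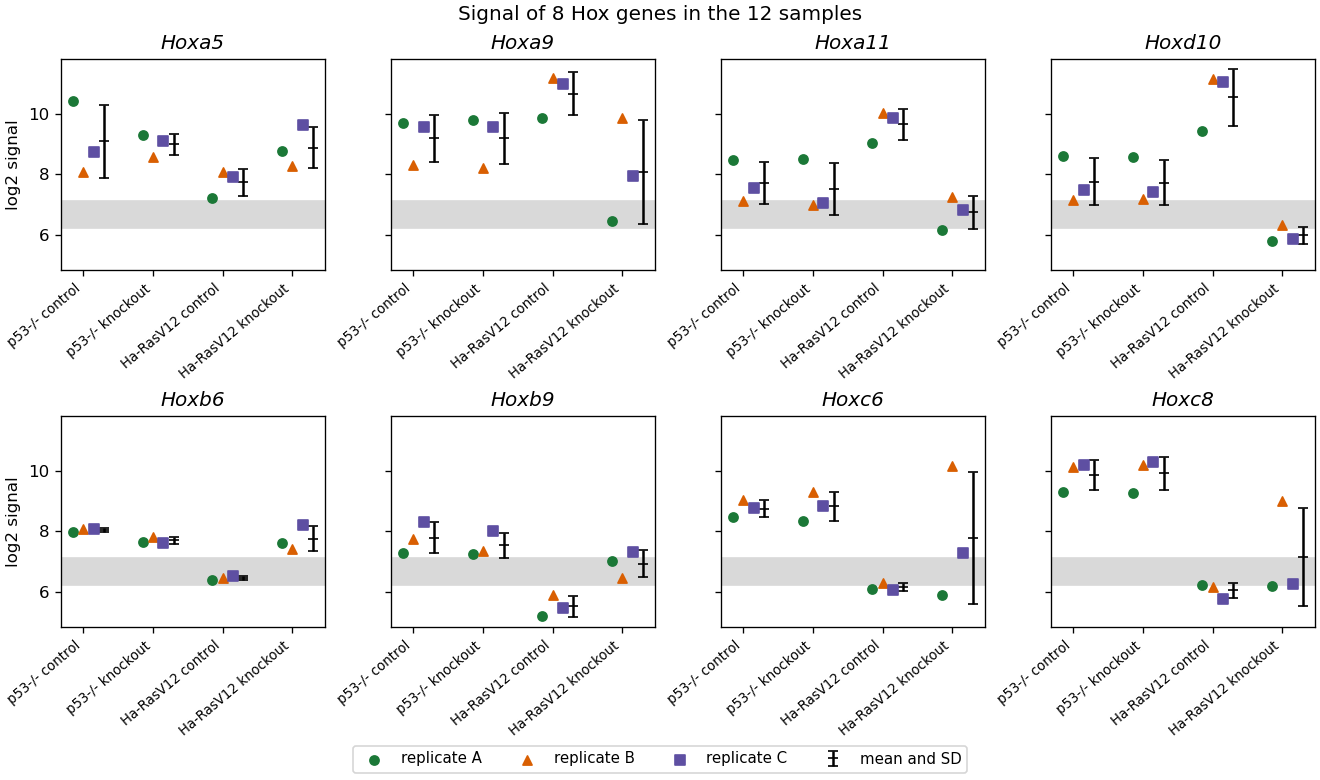
Each panel gives the log2 signal of 1 Hox gene in replicates A, B and C of the 4 groups, with the group mean and SD beside them, and the grey band is the range of the 95th percentile of control reporters over the 24 channels. Hoxd10 falls into or under the band in every Ha-RasV12 knockout, Hoxb6 leaves it, and Hoxc6 and Hoxc8 are highest among Ha-RasV12 cells in knockout B.

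Other genes on the Hox chromosomes were taken only where named by RefSeq accession alone, 20 to 54 a chromosome. They had median Ha-RasV12 differences between -0.09 and 0.05 on chromosomes 2, 6, 11 and 15 in the 3 replicates. Accessions named by the authors' lists of reporters past a threshold were thereby left out. Medians near 0 were favoured by that choice, and nothing is read from them. Of 25 genes that flank the clusters or are antisense to them, 5 were named. The flanking genes Skap2, Cbx5, Lnpk and Atp5g3 were not called, with Ha-RasV12 differences of 0.13 ± 0.50 (SD, n = 3), 0.26 ± 0.43 (SD, n = 3), 0.13 ± 0.26 (SD, n = 3) and -0.55 ± 0.33 (SD, n = 3).

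Among genes that act with or on Hox genes, few were named, most of them through the authors' lists of these same contrasts, so nothing is read from their counts. Against 2.36% of all transcripts called higher and 1.43% lower in Ha-RasV12 cells, 1 of 3 named Hox cofactors (of 9) was called, Meis3, with a difference of 0.51 ± 0.21 (SD, n = 3, adjusted p = 0.0364), while Meis2 and Pbx4 were not. Of 27 chromatin regulators 3 were named, and Bmi1, a Polycomb subunit, was called lower by 1 of 6 reporters, -0.66 ± 0.43 (SD, n = 3, adjusted p = 0.0308). Cbx7 and Phc1, also of Polycomb, were not called. Of 17 upstream regulators 4 were named, and Cyp26b1, which breaks down retinoic acid, was called higher by 1 of 3 reporters, 0.68 ± 0.36 (SD, n = 3, adjusted p = 0.00269). Rara, Rarb and Fgf10 were not called. None of these 3 calls stood without the replicate block (adjusted p = 0.0993 for Meis3, 0.0959 for Bmi1 and 0.778 for Cyp26b1) or without replicate C, that of Meis3 was lost with any replicate left out, and that of Bmi1 also without B and with means over reporters (adjusted p = 0.152).

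Of 23 transcription factors that mark position in limb and trunk 8 were named, 3 of them called lower, against 1.43% of all transcripts, and 1 higher, against 2.36%. They too were named mostly through lists of the same contrast, and nothing is read from the count. Tbx5, which specifies the forelimb, read 8.14, 9.64 and 9.53 in controls and 6.10, 9.69 and 6.34 in knockouts (adjusted p = 0.0491). Knockout B kept Tbx5 while A and C were near background, as for Hoxa7. Alx1, a gene of the craniofacial mesenchyme, read 6.29, 5.06 and 5.99 in controls and 11.61, 5.67 and 10.55 in knockouts (adjusted p = 0.0246), high in A and C and at background in B. Msx1 and Lhx9 differed by -0.85 and -0.52 (adjusted p = 0.00201 and 0.019). Each of the 4 calls rests on 1 of 3 reporters, and none stood without the replicate block (adjusted p = 0.517 for Tbx5, 0.233 for Alx1, 0.236 for Msx1 and 0.564 for Lhx9). In p53-/- cells none of these lists had a call.

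Some cell type markers were also called in the Ha-RasV12 knockouts. Of 9 fibroblast markers 4 were named, and their summed intensity was 14948 to 23723 in p53-/- controls, 18578 to 26949 in p53-/- knockouts, 5877 to 7880 in Ha-RasV12 controls and 4379 to 6808 in Ha-RasV12 knockouts. Within that list Col3a1 fell by 1.75 on the log2 scale, Fn1 rose by 1.55 and Pdgfra by 0.95, and Col1a1 was not called. The cartilage gene Sox9 was called higher and read 8.19, 6.71 and 6.61 in controls and 9.81, 8.85 and 8.24 in knockouts. The epithelial gene Epcam was called higher by 1 of 6 reporters and read 7.37, 7.86 and 7.78 in controls and 8.40, 7.83 and 8.34 in knockouts. Without the replicate block Pdgfra, Sox9 and Epcam were not called (adjusted p = 0.406, 0.109 and 0.0768). Ptprc, the 1 macrophage marker named of 4, stayed at background in all groups, at 6.24, 5.88 and 5.66 in Ha-RasV12 controls and 5.89, 5.56 and 5.56 in knockouts. Nes (1 of 3 neural markers) and Des (1 of 3 muscle markers) were not called, and none of 3 endothelial markers was named. The part of any of these in the Hox differences was not tested, and fewer cells of a type cannot be told apart from less RNA per cell in these bulk samples.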

How the data were processed

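The authors deposited a table of normalized intensity values (linear scale, 24 dye channels on 12 two-colour arrays) and 6 lists of reporters past a threshold, with limma named, without a version, per the submitters' processing notes. In the authors' deposited lists the folds and means are log2 values, the moderated t and SAM statistics are scores, and each p-value or q-value is as the authors gave it. Folds recomputed from the table matched the lists within 1e-05 for every listed reporter in it. The background correction and the normalization are not stated. Both channels of an array have nearly equal medians, which differ between arrays.

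Symbols came from the authors' lists, updated through the RefSeq table of GRCm38.p6, and were extended to all reporters of the same accession. With 803 accessions matched by RefSeq, 17198 of 132488 reporters got a name, for 4413 genes. Control reporters (5000) gave the background and were left out of tests. log2 values were averaged over the dye swap into 12 values, 3 a group. limma 3.58.1 in R 4.3.3 fitted knockout against control in both backgrounds and their interaction, with the replicate as a block because control and knockout of 1 replicate shared arrays, and the 2 controls without a block. In that pairing, deviations of knockout and control from their group means correlated at 0.70, 0.59 and 0.75 in p53-/- replicates A, B and C and at 0.24, -0.40 and 0.51 in Ha-RasV12. Adjustment was by Benjamini-Hochberg, called at 0.05. The model code was run on simulated data with known changes. There the spread was a fraction of each reporter's spread over all channels, and control and knockout of 1 replicate shared no effect. That run therefore does not show how the model behaves where replicates disagree. Tables and plots were made with Python 3.11.15, numpy 2.4.6, pandas 2.3.3 and matplotlib 3.10.9.

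The members, the lists of other genes and the tests were chosen with earlier results of these data known. The text names the 22 Hox genes, E4f1, and of the other lists each gene called in a knockout comparison, up to 6 a list. Some genes are not reported here, though their reporters stayed in every fit. Members without a call and the neighbours were added as values. Alternatives were the fit without the block, other normalizations, a filter on dim reporters, means over reporters, single dye orientations, an adjusted p of 0.01, fits of the compared groups alone, each replicate left out, and the authors' lists. The values for replicate B were added after seeing the data.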

Additional observations from a re-analysis of the deposited data

Results flagged for a closer look

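For 8 Hox genes the response to E4F1 loss differed between Ha-RasV12 and p53-/- cells by the limma interaction test. The Ha-RasV12 effect minus the p53-/- effect, in log2 units, was -4.52 for Hoxd10, -2.71 for Hoxa11, -2.58 for Hoxd12 and -2.57 for Hoxa10. It was 1.63 for Hoxb6, 1.77 for Hoxb7, 1.26 for Hoxb8 and 1.67 for Hoxb9. The calls of Hoxb8 and Hoxb9 rest on 1 of 3 reporters each. Groups of 3 replicates are too small for the test of outlying samples.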

How the results depend on the processing

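For E4F1 loss in Ha-RasV12 cells the 10 calls became 7 without the replicate block and 5 when the compared groups were fitted alone. The calls ran from 4 to 15 with 1 replicate left out, lowest without replicate C. The authors' deposited SAM list at 5% holds all 22 genes. That count was fixed in advance, because the members entered through this list. Calls over all reporters went from 3061 to 1038 without the block and 280 with the groups alone. Without replicates A, B and C there were 3552, 1360 and 282. Hoxa11, Hoxb6, Hoxd10 and Hoxd12 were called in all 9 alternative fits and with any replicate left out. For the difference between backgrounds the 8 calls became 4 without the replicate block and 5 at an adjusted p of 0.01, and ran from 1 to 11 with 1 replicate left out. Over all reporters 568 calls became 137 and 170, and 833, 182 and 8 without A, B and C. For the 2 controls the 11 calls ran from 4 to 15 with 1 replicate left out. Over all reporters 4926 calls became 7360, 830 and 757 without A, B and C. In p53-/- cells the count was 0 in every alternative fit and 3 in each of the authors' deposited lists (limma, SAM 1% and SAM 5%). In Ha-RasV12 cells the smallest adjusted p of a called gene ranged from 2.74e-06 to 0.286 over these fits. No called gene changed direction in the alternatives run. The cause of the lost calls was not tested. Centring each array on its median moved the median of all reporters between the controls from -0.13 to 0.04, with 10 Hox genes called, and quantile normalization moved it to 0.01, with 10. Signals near the control reporters' 95th percentile limit the Hoxb, Hoxc and low Hoxa values. Reporters of 1 gene gave unequal folds, as in Hoxb8, where 1 of 3 passed.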
